A study of Mus musculus with 48 samples.

Results

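Interleukin-6 (IL-6) family genes were examined in 48 mouse mammary tumors, 4 from each of 12 transplanted models. The 10 genes, out of 19938 measured, were taken by symbol and not by their signal: the ligands Il6, Il11, Lif and Osm, the receptor chains Il6ra, Il6st, Lifr and Osmr, the transcription factor Stat3 and its feedback inhibitor Socs3. Every member was measured, and no member was lost to a filter on low values, since none was applied. Lines of spontaneous tumors, grown in Balb/c mice, made up the models TS/A-E1, F311, EMT-6, D2A1 and 4T1. The FVB/N models Met-1, MVT-1, M6, HRM-1 and 6DT1 came from engineered tumors, as did the 129Sv model R3T, and the C57Bl/6 model E0771 came from a spontaneous tumor. The labels name no drug or other treatment. According to the labels, cells had been implanted into the number 4 mammary fat pad of immunocompetent mice of the same strain, whose age the labels do not give, and the tumors were taken at a diameter of 0.5 to 1.0 cm. Each model is thus 1 implanted line, and its 4 tumors show how that line varies from mouse to mouse. Strain and origin cannot be told apart, because the compared Balb/c models were all spontaneous and the FVB/N models all engineered.

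IL-6, IL-11, LIF and oncostatin M are secreted cytokines that share the signal-transducing receptor chain gp130, which Il6st encodes. Each ligand reaches gp130 through a further receptor chain of its own. IL-6 binds the chain encoded by Il6ra, LIF binds that of Lifr, and mouse oncostatin M binds mainly that of Osmr. Assembly of the receptor activates JAK kinases, which phosphorylate STAT3. STAT3 in turn switches on response genes, among them Socs3, whose product blocks gp130 and the JAKs. In mammary tissue LIF acting through STAT3 is known for starting involution after weaning, and in tumors the family is known for carrying signals between cancer cells, fibroblasts and myeloid cells. Array signal reports messenger RNA, so neither cytokine protein nor phosphorylated STAT3 was measured.

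Promoters of the family were read from RefSeq (mouse build GRCm38.p6) to show the control elements for which these genes are known. Promoter entries existed for 9 members, 11 promoters in all, and no entry was used for Osm. The 250 bases before each gene start were searched for the STAT element TTCNNNGAA, the AP-1 element TGANTCA and the κB element GGGNNTTTC, on both strands. No matches to different elements overlapped in the members. The STAT element was matched in 1 of the 11 promoters, that of Socs3, against 7.02% of all 32851 promoters. An AP-1 match lay in 3 of the 11 (Il6, Lif and the second Il11 promoter) against 6.75% of all promoters, and a κB match in 1 (Il6) against 3.72%. The promoters of a ligand with both AP-1 and κB letters, of the ligand that varied most and of the feedback inhibitor are shown, with the matches in capitals. That of Il6 lies at chr5:30012864-30013113 on the plus strand, that of Lif at chr11:4257318-4257567 on the plus strand and that of Socs3 at chr11:117969367-117969616 on the minus strand.
Il6: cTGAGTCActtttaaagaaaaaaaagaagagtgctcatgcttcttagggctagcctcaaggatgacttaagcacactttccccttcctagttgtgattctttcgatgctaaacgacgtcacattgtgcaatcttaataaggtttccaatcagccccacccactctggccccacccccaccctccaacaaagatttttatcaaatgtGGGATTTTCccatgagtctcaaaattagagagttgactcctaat
Lif: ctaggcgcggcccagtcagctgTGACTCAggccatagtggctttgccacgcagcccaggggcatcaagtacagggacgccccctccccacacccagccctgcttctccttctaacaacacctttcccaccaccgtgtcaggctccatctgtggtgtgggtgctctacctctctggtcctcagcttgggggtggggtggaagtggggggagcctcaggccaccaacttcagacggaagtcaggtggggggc
Socs3: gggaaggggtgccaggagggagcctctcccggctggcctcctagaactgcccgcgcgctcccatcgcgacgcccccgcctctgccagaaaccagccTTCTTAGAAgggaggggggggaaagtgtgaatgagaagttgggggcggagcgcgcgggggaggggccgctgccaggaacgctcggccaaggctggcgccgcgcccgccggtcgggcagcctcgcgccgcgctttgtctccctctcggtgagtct
In Il6 the κB match GGGATTTTC begins 44 bases before the gene start and the AP-1 match TGAGTCA begins 249 bases before it. In Lif the AP-1 match TGACTCA begins 228 bases before the start, and in Socs3 the STAT match TTCTTAGAA begins 154 bases before it. A match describes the letters of the sequence and was not set against factor binding. Lif and Osm are direct neighbors on chromosome 11, and Lifr and Osmr are direct neighbors on chromosome 15, with 0 protein-coding genes between the members of either pair.

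The values are log2 array signals as deposited, 1 array per tumor, with array medians between 6.76 and 6.99. A step of 1 unit is a doubling of signal. Means are given ± SD over 4 tumors, and since each transcript cluster (the probes that report a gene) has its own brightness, levels are compared between tumors and not between genes. Epithelial genes marked the tumors unevenly: Krt8 model means lay between 11.01 and 13.33, whereas Epcam means ran from 6.31 in D2A1 to 11.58 in M6, with 6.43 in MVT-1, 6.87 in E0771 and 7.13 in EMT-6. In all, 9 tumors, called host-rich here, also carried a high signal of adipocyte or B cell genes. They are F311 replicates 1 and 2, 6DT1 replicates 2 and 3, and 1 tumor each of Met-1 (replicate 2), 4T1 (replicate 3), E0771 (replicate 1), R3T (replicate 2) and EMT-6 (replicate 3). A score, the mean over marker genes of log2 signal minus the median of all tumors, was above 2.5 in each of them for 1 or both cell types. The adipocyte score used 7 of 8 listed genes and ran from -1.24 to 4.36 over the tumors, and the B cell score used 5 of 6 and ran from -0.32 to 4.67. Calls lost without these host-rich tumors are named, and further values without them are given where stated. Unless stated otherwise, values are over all tumors.

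The first question was whether the family differed among the models. Limma's F-test over the 12 models, adjusted over all genes, called 9 of the 10 members, with Lifr at an adjusted p of 0.0585. The same test called 70.4% of all genes, so that a large share of members was no mark of the family. The range of model means had a median of 1.27 log2 units over the members and 0.68 over all genes. It was widest for Lif (2.40, or 5.26-fold), Il6ra (2.11, 4.32-fold) and Osmr (1.91, 3.75-fold), and narrowest for Stat3 (0.72, 1.64-fold) and Socs3 (0.75, 1.68-fold). Width and reproducibility did not go together. The share of variance that lay between models was 88.1% for Stat3, 80.2% for Osmr and 75.0% for Il6ra, but 57% for Lif, 41% for Il6 and 38.2% for Lifr. Within the 5 Balb/c models alone, 6 members passed against 46.7% of all genes (Il6, Il11, Osm, Osmr, Socs3 and Stat3). Of these, Il6 (adjusted p = 0.0418), Il11 (0.0328) and Osm (0.0496) were close to the threshold, and without F311 replicate 2 none of them passed (0.062, 0.0552 and 0.0662 in limma's F-test), which left 3 members. That tumor was not alone, as the count was 4 or 5 in most other fits that left out 1 tumor and stayed at 6 in few. Within the 5 FVB/N models 7 members passed against 62.4% of all genes (Lif, all 4 receptor chains, Socs3 and Stat3). Here Lif (adjusted p = 0.0311 in limma's F-test) and Lifr (0.0385) were close to the threshold. The count fell to 5 without Met-1 replicate 2 or without HRM-1 replicate 1, 3 or 4, and rose to 9 without 6DT1 replicate 3.

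Each model was then set against the mean of the other 11, which asks which models stand high or low for each gene. Of the 120 combinations of a member and a model, limma called 27 at an adjusted p under 0.05. These contrasts share tumors and are therefore read side by side. M6 had the most members called, 5 of 10, with Lifr and Osmr higher and Osm, Il6ra and Il6st lower, while 36.6% of all genes were called there. In EMT-6 4 members were higher (Il11, Osm, Osmr and Socs3) and 23.9% of all genes were called. In 4T1 3 were higher (Il6, Osmr and Stat3; 24.6% of all genes), and in TS/A-E1 3 were higher (Il11, Socs3 and Stat3; 16.2%). Both members called in D2A1, Osmr and Stat3, were lower, with 27.5% of all genes called, and so were both called in E0771, Lif and Osmr, with 37.5%. In HRM-1 Lif was higher and Stat3 lower (24.9% of all genes), in MVT-1 Il6ra was higher and Osmr lower (20.5%), and in Met-1 Stat3 was higher and Socs3 lower (31.7%). A further member was called in F311, where Stat3 was higher (17.5% of all genes), and in 6DT1, where Il6st was higher (35.5%). No member was called in R3T, against 23.2% of all genes. Of the 27 calls, 17 held in every fit that left out 1 tumor, and the others are named with their genes. The methods' t-test of 4 tumors against the other 44 called 20 combinations unadjusted and 9 after Benjamini-Hochberg adjustment, namely Il6 in 4T1, Il11 and Osm in EMT-6, Lif in E0771, Il6ra and Il6st in M6, Osmr and Stat3 in D2A1 and Socs3 in Met-1. Without the 9 host-rich tumors, an alternative added once the data had been examined, 24 of the 27 calls stood (not Il6 in 4T1, Il6st in 6DT1 or Socs3 in EMT-6) and 50 combinations were called in all. The share of all genes called over the 12 contrasts went up as well, from 26.6% to 34.9%, beside 22.5% and 41.7% of the members' combinations. The sign of 12 combinations changed there, none of them among the 27 calls, and 2 of these were then called (Lif and Osm in 6DT1, both higher, by 0.60 and 0.56).

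**Figure D1:**
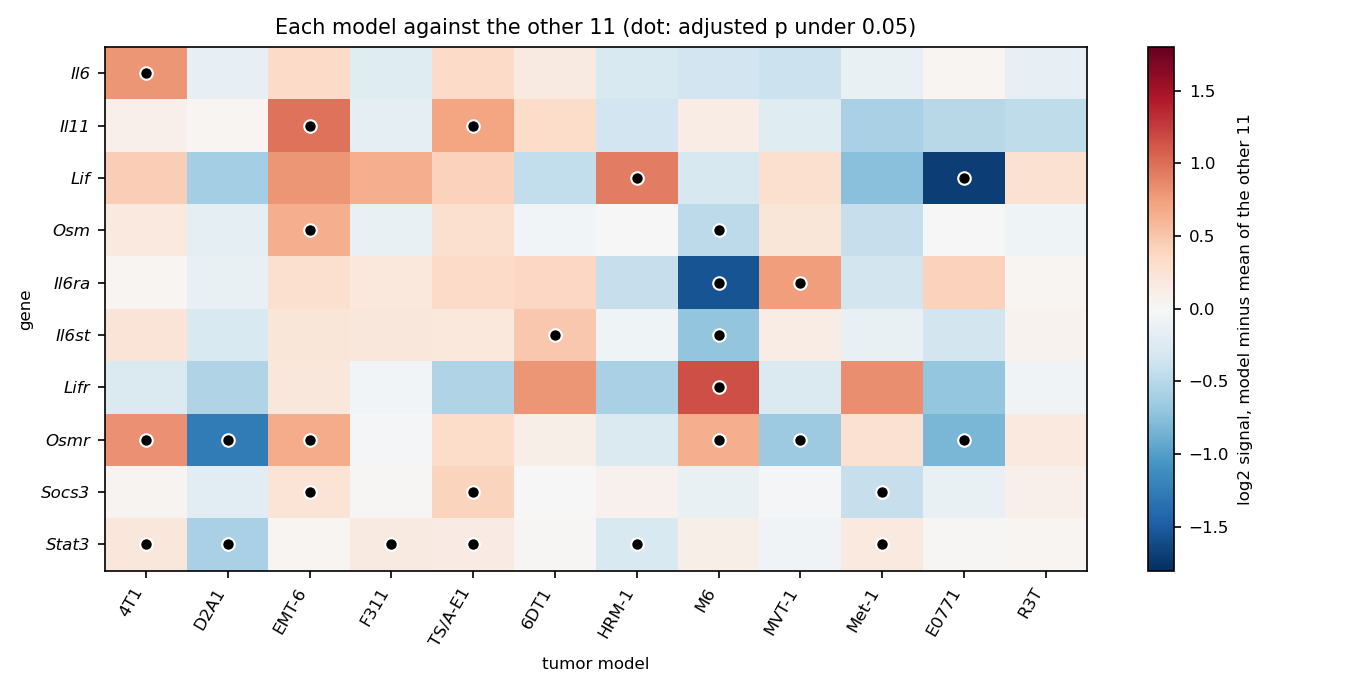
Log2 signal of each IL-6 family gene (vertical axis) in each model (horizontal axis, Balb/c models first, then FVB/N, E0771 and R3T) minus the mean of the other 11 models, shown as color from blue (lower) to red (higher). Dots mark the 27 combinations with an adjusted p under 0.05 in limma; the deepest blue cells are Lif in E0771 (-1.70) and Il6ra in M6 (-1.55).

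Among the ligands, Il6 itself gave a weak signal that rose above its usual level in a few tumors. Il6 (gene ID 16193) had a log2 signal of 5.01, 6.50, 6.20 and 5.19 in the 4T1 tumors, a mean of 5.73 ± 0.74. The means of the other models lay between 4.65 ± 0.13 in MVT-1 and 5.33 ± 0.44 in TS/A-E1. The 4T1 tumors were thus split, with 2 high tumors and 2 inside the range of other models, and a further high tumor was 6DT1 replicate 4, at 6.43, against 4.54 to 4.89 in the other 6DT1 tumors. In F311 all 4 tumors lay between 4.73 and 4.85. The range of model means was 1.07 (adjusted p = 0.0335 in limma's F-test), and 4T1 exceeded the other 11 models by 0.79 (standard error 0.22, adjusted p = 0.00567). Both calls hung on few tumors. The contrast was lost without 4T1 replicate 2 (adjusted p = 0.119) or replicate 3 (0.0694) and without the host-rich tumors (0.0905), which include replicate 3. The F-test was lost without 4T1 replicate 2 (0.126), 4T1 replicate 3 (0.118) or MVT-1 replicate 1 (0.05), and without the host-rich tumors (0.164). Over 48 arrays the mean Il6 signal of 5.01 was below 5.65, the limit under which the dimmest 30% of clusters lay, and near background an array understates the size of a change.

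With all tumors in, Il11 (gene ID 16156), the ligand of a separate receptor chain that also signals through gp130, was highest in EMT-6 and TS/A-E1. The EMT-6 tumors had a log2 signal of 7.72, 7.71, 7.25 and 8.15 (mean 7.71 ± 0.37) and the TS/A-E1 tumors 7.59, 8.09, 7.28 and 6.87 (7.46 ± 0.52). The lowest means were those of Met-1 (6.27 ± 0.16), E0771 (6.35 ± 0.08) and R3T (6.39 ± 0.05). Against the other models EMT-6 was higher by 0.98 (standard error 0.25, adjusted p = 0.0028 in limma), a call that held whichever tumor was left out. TS/A-E1 was higher by 0.71 (adjusted p = 0.0437), and this call was lost without TS/A-E1 replicate 1 (0.144), 2 (0.291) or 3 (0.0785) or without 4T1 replicate 4 (0.0504). The highest Il11 signal of all lay outside these models, at 8.65 in 6DT1 replicate 4. The other 6DT1 tumors had 7.43, 6.18 and 6.17, and the 2 low ones are those rich in adipocyte genes. Without the host-rich tumors 6DT1 had the highest mean, 8.04 over 2 tumors, and was called higher by 1.24 (adjusted p = 0.00139 in limma). EMT-6 then had 7.86 and TS/A-E1 7.46, both still called higher, and Met-1 was called lower by 0.71 (adjusted p = 0.0178). In M6, replicate 3 had 8.28 and the other 3 tumors 6.41 to 6.57. High Il11 in a model therefore came from all 4 tumors in EMT-6 but from 1 tumor in M6.

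Lif (gene ID 16878) showed the widest range of the family. In E0771 it was low in all 4 tumors, at 6.34, 6.49, 6.34 and 6.91 (mean 6.52 ± 0.27), which put the model 1.70 below the other 11 (standard error 0.34, adjusted p = 0.00011 in limma). No single tumor decided that call, and without the host-rich tumors the difference was -1.88. The highest mean was that of HRM-1, 8.92 ± 0.17, with tumors from 8.70 to 9.10, followed by EMT-6 at 8.80 ± 0.51. HRM-1 exceeded the others by 0.92 (adjusted p = 0.0465), but this call lay at the threshold and was lost in 28 of 48 fits that left out 1 tumor, where the adjusted p went up to 0.138. Without the host-rich tumors it was 0.67 with an adjusted p of 0.000257. Lif was about as low as in E0771 in 4 tumors of other models. F311 replicate 1 had 6.43 whereas the other F311 tumors had 9.05, 9.93 and 9.29. Met-1 replicate 2 had 6.33 against 7.50 to 7.93, and 6DT1 replicates 2 and 3 had 6.65 and 6.30 against 9.01 and 8.69. All 4 of these tumors were rich in adipocyte genes, with scores of 3.91, 2.67, 4.03 and 4.36, and the part of this in the low Lif signal was not tested. In bulk tumors fewer cells of a type and less RNA per cell cannot be told apart. With the 9 host-rich tumors left out, the highest Lif mean was that of F311, 9.61 over 2 tumors, the range of means grew to 3.03 and the adjusted p of the F-test went from 0.000367 to 1.11e-11.

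Osm (gene ID 18413), a cytokine made mainly by myeloid and T cells, was highest in EMT-6. The EMT-6 tumors had 7.23, 6.79, 6.81 and 7.88 (mean 7.18 ± 0.51), 0.65 above the other models (standard error 0.18, adjusted p = 0.00666 in limma). That call was lost without EMT-6 replicate 4 (adjusted p = 0.147), and so was the F-test over the 12 models, which had an adjusted p of 0.0203 with all tumors and 0.0682 without that one. M6 had the lowest mean, 6.15 ± 0.21, with tumors at 5.96, 5.98, 6.34 and 6.33. M6 was 0.47 below the others (adjusted p = 0.0375), a call lost without M6 replicate 1 (0.152) or 2 (0.137). Met-1 was next lowest, at 6.21 ± 0.47. Its replicate 2, a host-rich tumor with a neutrophil score of 1.39, had 6.90 while the other 3 had 5.90 to 6.05. Without the host-rich tumors Met-1 had 5.98 and was called lower by 0.72 (adjusted p = 0.000172). Over the 48 tumors, each taken as its deviation from its model mean, Osm had r = 0.71 with the neutrophil score and -0.12 with the macrophage score. Over the 12 model means the order was otherwise, with r = 0.35 for the neutrophil and 0.69 for the macrophage score. EMT-6 had the highest mean neutrophil score (0.64). Met-1 had the next highest (0.60) and was low for Osm. Inside Met-1, replicate 2 had both the highest neutrophil score (1.39) and the highest Osm signal (6.90). The part of neutrophil content in the Osm signal was not tested.

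**Figure D2:**
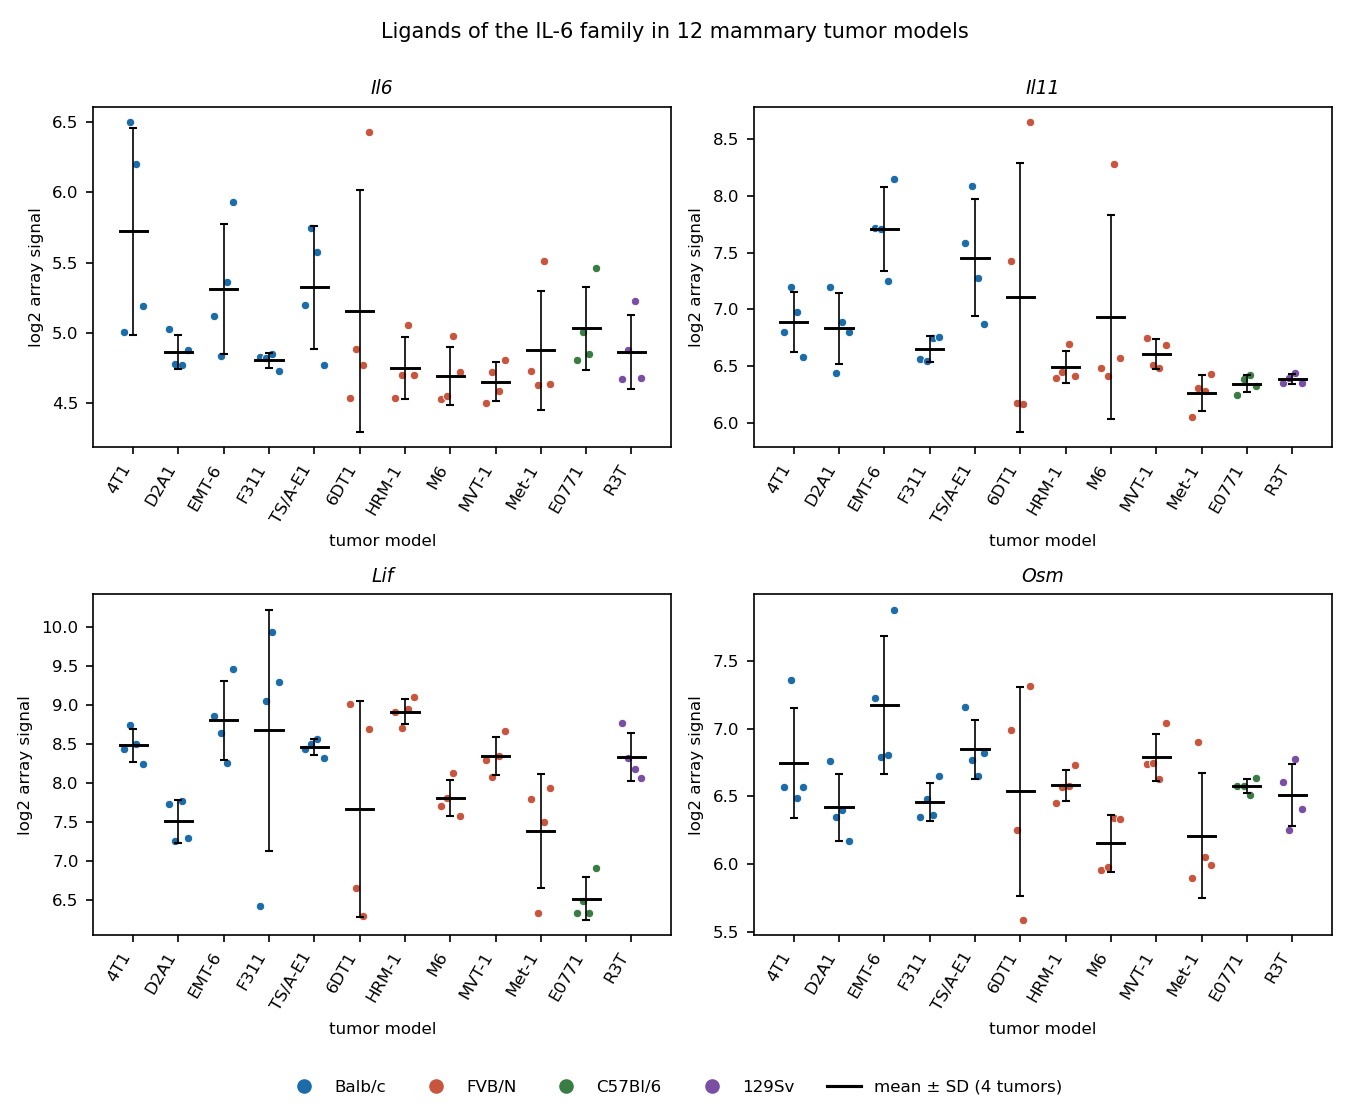
Log2 array signal (vertical axes) of the 4 ligands in 12 tumor models (horizontal axes). Points are tumors, colored by strain, and bars are the mean ± SD of 4 tumors; the E0771 tumors lie at 6.34 to 6.91 for Lif, and 4 lone tumors of F311, Met-1 and 6DT1 lie as low.

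Among the receptors, Il6ra set M6 apart from the other models. Il6ra (gene ID 16194), the chain that binds IL-6, had a log2 signal of 8.0, 8.31, 9.41 and 8.30 in M6 tumors, a mean of 8.51 ± 0.62. All 4 were below every tumor of HRM-1, the next model, at 9.49 to 9.63, though M6 replicate 3 overlapped with Met-1 tumors. The difference from the other 11 models was -1.55 (standard error 0.18, adjusted p = 2.71e-09 in limma) and stayed between -1.85 and -1.38 whichever tumor was left out. MVT-1 was highest, at 10.54, 10.69, 10.56 and 10.68 (mean 10.62 ± 0.08), with no overlap with E0771, the next model (10.31 ± 0.15), and 0.75 above the others (adjusted p = 0.00168). The 10 models between M6 and MVT-1 overlapped with their neighbors in the order of means. In Met-1 the tumors differed, with 10.76 in replicate 2, rich in B cell and adipocyte genes, and 9.02 to 9.57 in the others. Without the host-rich tumors Met-1 had 9.24 and was called lower by 0.71 (adjusted p = 0.000252 in limma). Il6ra is known to be carried by macrophages and hepatocytes, among other cells. The macrophage score, from 7 of 8 listed genes, was lowest in M6 (mean -1.06, tumors from -1.52 to -0.52) and highest in MVT-1 (mean 0.37). The T cell score was also lowest in M6 (mean -1.22), where the basal epithelial score was highest (mean 1.90). M6 replicate 3, which had the highest Il6ra of its model, also had the highest macrophage score of its model, -0.52. In Met-1 it was the other way round, as replicate 2, with the highest Il6ra signal of the 48 tumors, had the lowest macrophage score of its model, -0.46. Over the 48 deviations from the model means Il6ra had r = 0.20 with the macrophage score, 0.61 with the T cell score and 0.49 with the B cell score. The part of these cells in the Il6ra signal was not tested.

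Il6st (gene ID 16195), which encodes gp130, was also lowest in M6. The M6 tumors had 10.16, 10.64, 10.79 and 10.60 (mean 10.55 ± 0.27), 0.71 below the other models (standard error 0.16, adjusted p = 0.000276 in limma), and this held without any 1 tumor and without the host-rich tumors (-0.60). The highest mean, 11.65 ± 0.49 in 6DT1, was that of a divided model. Replicates 2 and 3, rich in adipocyte genes, had 11.94 and 12.19, and replicates 1 and 4 had 11.23 and 11.22. The call of 6DT1 above the others (0.49, adjusted p = 0.0141) was lost without replicate 2 (0.111) or 3 (0.18) and without the host-rich tumors (0.368), when 4T1 had the highest mean of Il6st, at 11.47. Neighbors in the order of means overlapped throughout, M6 and E0771 included.

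Lifr (gene ID 16880), the LIF-binding chain, did not pass the F-test (adjusted p = 0.0585), with a pooled SD of 0.80 within models, the largest of the 10 members. It did pass in 10 of 48 fits that left out 1 tumor, with the lowest adjusted p, 0.0127, without 6DT1 replicate 1. Its mean was highest in M6, 9.63 ± 0.73, from tumors at 9.70, 10.30, 8.60 and 9.92, and lowest in E0771, 7.93 ± 1.00, from tumors at 9.20, 6.79, 8.07 and 7.67. M6 was called higher than the others by 1.16 (standard error 0.41, adjusted p = 0.0219 in limma), a call lost without M6 replicate 1 (0.0659), 2 (0.13) or 4 (0.0837). The tumors with the strongest Lifr signal were in 6DT1 and F311 as much as in M6, with 10.56 and 10.44 in 6DT1 replicates 2 and 3 and 10.21 in F311 replicate 1, while the remaining tumors of these 2 models had 7.06 to 8.50. Without the host-rich tumors, Lifr passed the F-test (adjusted p = 0.00258), the range of means was 2.12 instead of 1.70, and M6 stood 1.45 above the others (adjusted p = 8.7e-05). By model means, E0771 was thus lowest for Lif and for Lifr, while M6 was highest for Lifr and below 7 other models for Lif (7.81 ± 0.23).

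Osmr (gene ID 18414), the oncostatin M receptor chain, was called in 6 of 12 models, as was Stat3, and over a wider range. The 4T1 tumors had 10.97, 11.09, 11.09 and 10.97 (mean 11.03 ± 0.07), each above all 44 other tumors, of which the nearest was M6 replicate 4 at 10.95. EMT-6 (10.89 ± 0.07) and M6 (10.87 ± 0.08) followed, and neither differed from the other beyond its spread. Against the remaining models 4T1 was higher by 0.82, EMT-6 by 0.67 and M6 by 0.65 (adjusted p = 0.000213, 0.00223 and 0.00149 in limma). At the low end D2A1 tumors had 9.91, 9.47, 8.27 and 8.84 (mean 9.12 ± 0.72), 1.26 below the others (adjusted p = 1.17e-07). E0771 (9.53 ± 0.22) and MVT-1 (9.69 ± 0.10) were lower by 0.82 and 0.65 (adjusted p = 9.22e-05 and 0.00376). These 6 calls held in every fit with 1 tumor left out and without the host-rich tumors. The luminal score, from 7 keratin, adhesion and tight junction genes, was likewise low in D2A1 (-2.21), E0771 (-2.51) and MVT-1 (-1.74), but it was low in EMT-6 too (-1.85), where Osmr was high. In 6DT1 the tumors ranged from 9.39 in replicate 1 to 10.93 in replicate 3.

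**Figure D3:**
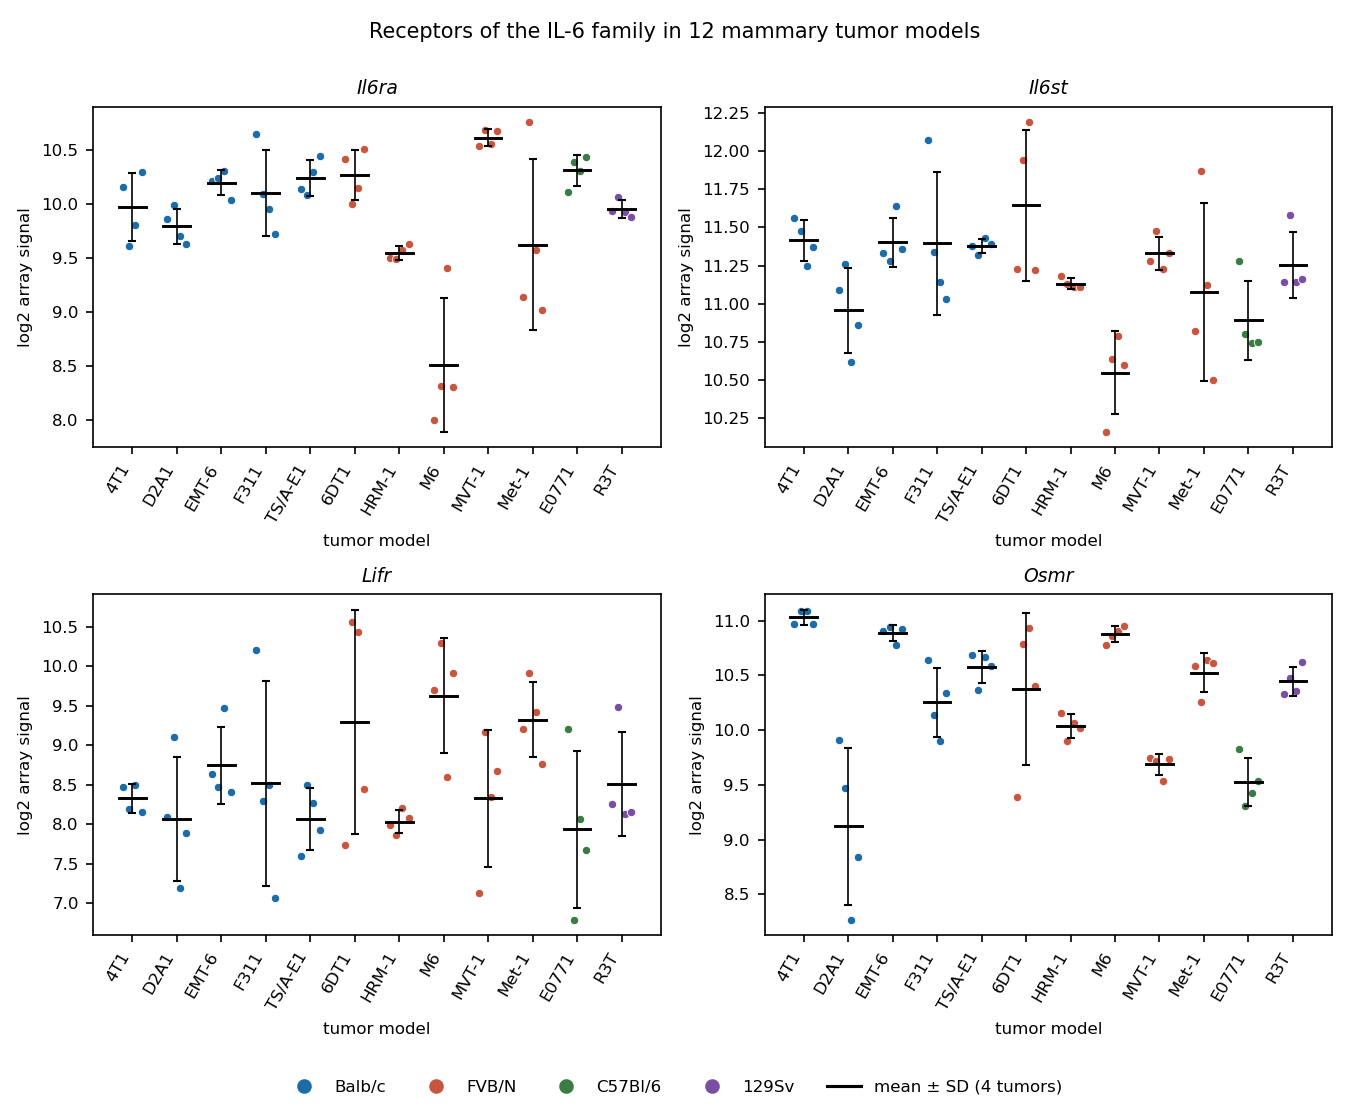
Log2 array signal (vertical axes) of the 4 receptor chains in 12 tumor models (horizontal axes). Points are tumors, colored by strain, and bars are the mean ± SD of 4 tumors; M6 has the lowest Il6ra mean (tumors at 8.0 to 9.41), 4T1 tumors highest for Osmr (10.97 to 11.09), and Lifr spreads widely inside 6DT1 and F311.

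Stat3 (gene ID 20848) changed little in size and was the most reproducible member within models, with a pooled SD of 0.08. D2A1 tumors had 11.05, 10.96, 10.75 and 10.76 (mean 10.88 ± 0.15), below all 44 other tumors, although the gap to the nearest, HRM-1 replicate 2 at 11.06, was narrow. D2A1 was 0.58 below the other models (standard error 0.04, adjusted p = 5.52e-13 in limma) and HRM-1 (11.17 ± 0.07) was 0.27 below them (adjusted p = 1.53e-05). The tumors of MVT-1, the next model, at 11.26 to 11.40, lay above those of HRM-1. At the high end 4T1 (11.60 ± 0.12), Met-1 (11.57 ± 0.08), F311 (11.56 ± 0.08) and TS/A-E1 (11.54 ± 0.05) overlapped and were called higher by 0.20, 0.18, 0.16 and 0.15 (adjusted p = 0.000673, 0.00209, 0.00782 and 0.0199). The last call was lost without TS/A-E1 replicate 1 (0.0843), 3 (0.0966) or 4 (0.0771) and on quantile normalized values (0.134), and that of F311 without replicate 4 (0.0752). The upper 10 models thus overlapped from neighbor to neighbor, while HRM-1 and D2A1 stood apart from the models next to them.

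Socs3 (gene ID 12702), a STAT3 target whose product ends gp130 signaling, was highest in TS/A-E1. Its tumors had 9.69, 9.79, 9.82 and 9.74 (mean 9.76 ± 0.06), above all 44 others, of which EMT-6 replicate 4 came nearest, also at 9.69 on rounding. TS/A-E1 exceeded the other models by 0.40 (standard error 0.09, adjusted p = 0.00104 in limma). With the mean of its 2 clusters in place of the brighter one, the difference was 0.26 (adjusted p = 0.0078) and the range of Socs3 model means 0.50 instead of 0.75. EMT-6 (9.62 ± 0.05) was called higher by 0.24 (adjusted p = 0.0392), but this call was lost without any 1 of its tumors (0.0701 to 0.141), on quantile normalized values (0.054), with the mean of the clusters for Socs3 (0.232) and without the host-rich tumors (0.0598). Met-1 was lowest, at 9.02, 8.67, 9.22 and 9.13 (mean 9.01 ± 0.24), 0.42 below the others (adjusted p = 0.00022), and remained lower by 0.34 without the host-rich tumors, which include its lowest tumor. Met-1 was therefore high for Stat3 and low for Socs3, whereas TS/A-E1 was high for both. A second, dimmer cluster of Socs3, not used here, had its lowest mean in Met-1 as well (6.95), but its highest in 6DT1 (7.25).

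**Figure D4:**
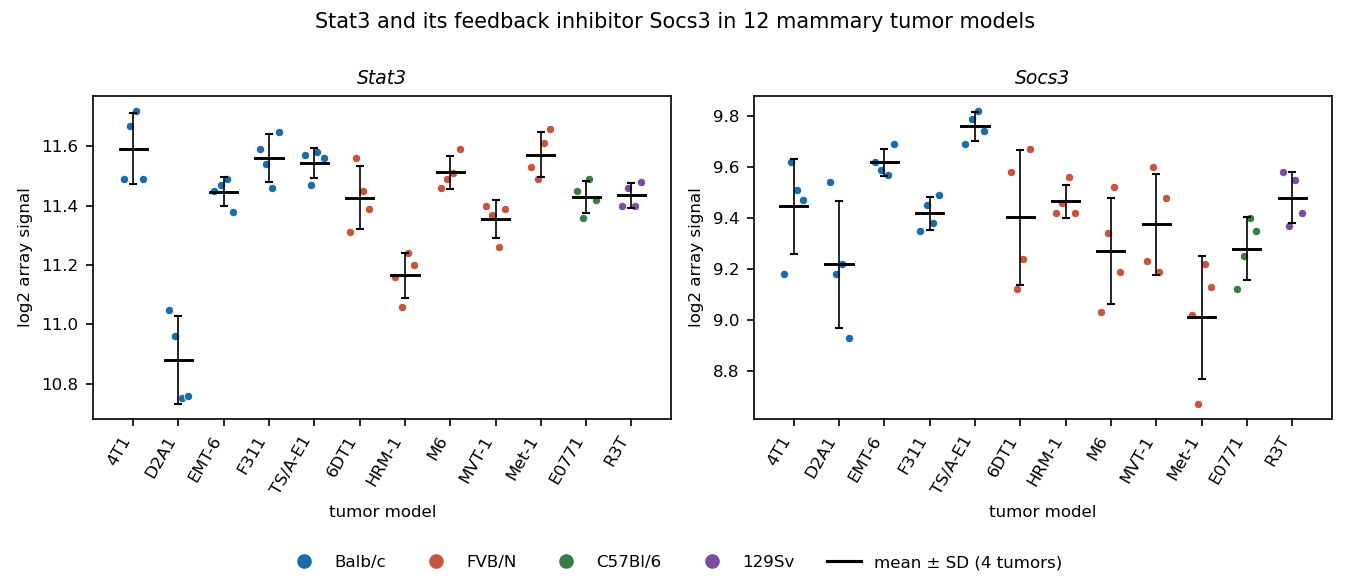
Log2 array signal (vertical axes) of Stat3 and Socs3 in 12 tumor models (horizontal axes). Points are tumors, colored by strain, and bars are the mean ± SD of 4 tumors; D2A1 tumors are lowest for Stat3 (10.75 to 11.05) and TS/A-E1 tumors highest for Socs3 (9.69 to 9.82).

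For strain, the means of the 5 Balb/c models were tested against those of the 5 FVB/N models, so that each model counted as 1 replicate. None of the 10 members was called by limma, against 0.191% of all genes, and none had an unadjusted p under 0.05. The smallest unadjusted p was that of Il6 (0.0627), for which the Balb/c mean was 5.21 and the FVB/N mean 4.83, a difference of 0.38 with a standard error of 0.18. Lifr had the largest difference, -0.58 with a standard error of 0.32, from means of 8.35 in Balb/c and 8.92 in FVB/N. The differences of Stat3 (0.00, standard error 0.14) and Osmr (0.07, standard error 0.37) were small beside their errors. Il6ra showed how the strains varied inside: its model means ran from 9.80 to 10.24 in Balb/c but from 8.51 to 10.62 in FVB/N, whose models included both ends of the order. With all 40 tumors and the model as a random block, again 0 members were called, beside 489 of all 19938 genes. With so small a share of genes called, 0 of 10 members is no result about the family.

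Tumors of 1 model differed from each other in a pattern that many, but not all, of the host-rich tumors shared. The 9 host-rich tumors came from 7 models, 2 each from F311 and 6DT1, so at most 7 could be the highest of their model. Lifr was the highest of the 4 tumors of its model in 7 of the 9, thus in each of these 7 models, and Il6st in 6. Socs3 was the lowest of its model in 6 of the 9 and Lif in 5, and neither was the highest in any. For each member 25.0% of tumors lie at a given end of their model by construction, but a model with 2 host-rich tumors can add only 1 to a count. F311 replicate 1 shows the pattern in full, with Lif at 6.43 against at least 9.05 in its other tumors, Lifr at 10.21 against at most 8.50, and Il6st at 12.07 against at most 11.34. R3T replicate 2 shows it for the receptors, with Lifr at 9.49 (8.13 to 8.26 in the others) and Il6st at 11.58 (11.14 to 11.16). Its Socs3 was the lowest of the model (9.37), while its Lif, at 8.32, lay within the others. F311 replicate 2 and 4T1 replicate 3 were rich in B cell genes but not in adipocyte genes. In F311 replicate 2, Lif, Lifr, Il6st and Socs3 all lay within the other tumors. In 4T1 replicate 3 Lifr was the highest (8.50), but Il6st was the lowest (11.25), and Lif and Socs3 lay within. Over the 48 deviations from the model means, Lif fell as Lifr (r = -0.68) and Il6st (-0.75) rose, and Il6st and Lifr rose together (0.72). The adipocyte score had r = 0.84 with Lifr, 0.77 with Il6st and -0.69 with Lif. Other scores moved along: the endothelial score had r = 0.80 with Il6st and -0.71 with Lif, and the basal epithelial score 0.73 with Lifr and -0.68 with Lif. The basal score is not a measure of host tissue alone, since it was high in all 4 M6 tumors (1.51 to 2.13), none of which is host-rich. These deviations share arrays and are a description. The share of normal fat pad or lymphoid tissue in each sample was not measured, and its part in the pattern was not tested. Other members moved together too, as Osmr and Stat3 had r = 0.72, Il11 and Osm 0.63, and Il6 and Il11 0.59. The fibroblast score had r = 0.70 with Osmr and 0.54 with Stat3, and -0.05 with Il11.

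**Figure D5:**
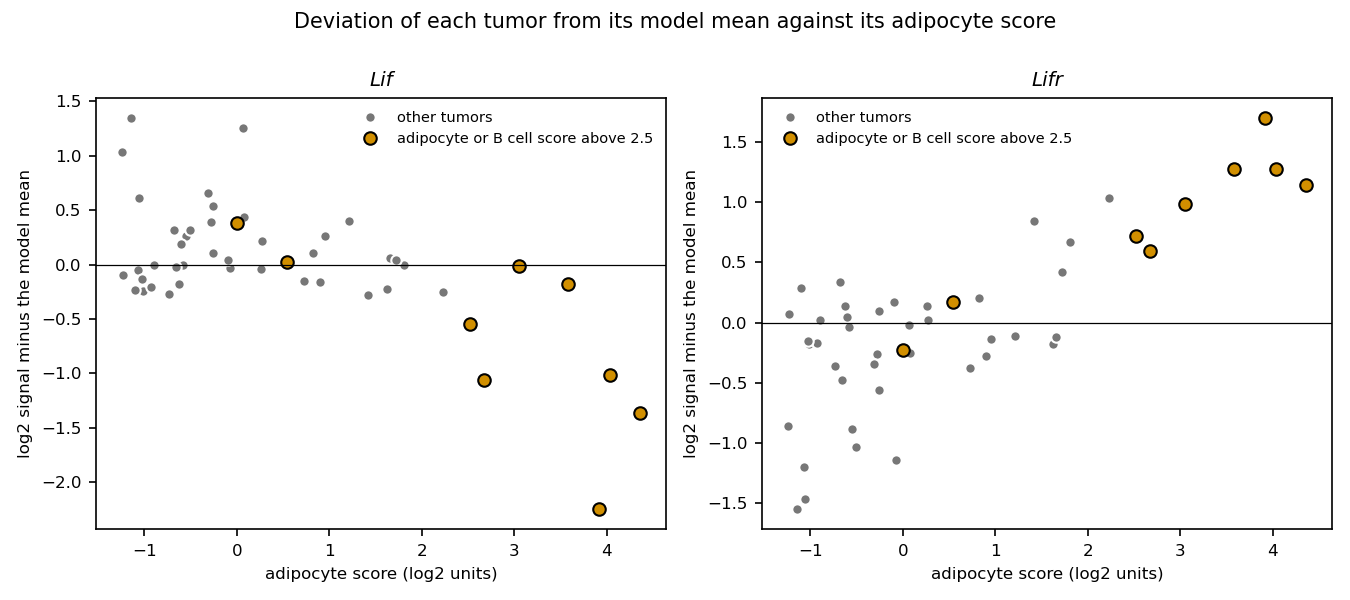
Log2 signal of Lif and Lifr in each of 48 tumors minus the mean of its model (vertical axes) against the adipocyte score of the tumor (horizontal axes, log2 units). Gold points are the 9 tumors with an adipocyte or B cell score above 2.5; with rising score Lif falls below its model mean (r = -0.69) and Lifr rises above it (r = 0.84).

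Among the 12 model means, 45 pairs of members were compared as a description. Osm and Socs3 rose together (r = 0.76, rho = 0.73), and the relation stayed at r = 0.79 without EMT-6 and M6, the 2 models farthest from the median of Osm. Osmr and Stat3 had r = 0.75 (rho = 0.75), and 0.62 without D2A1 and E0771. Lif and Socs3 had r = 0.66 (rho = 0.74), and 0.63 without E0771 and Met-1. The relations of 3 further pairs weakened without the 2 models farthest from the median. For Il11 and Osm r went from 0.63 to 0.04 without EMT-6 and TS/A-E1. For Il11 and Socs3 it went from 0.67 to 0.27 without the same models, and for Il6ra and Il6st from 0.74 to 0.43 without M6 and MVT-1. With the host-rich tumors left out instead, r was 0.75 for Il11 and Osm, 0.69 for Il11 and Socs3 and 0.69 for Il6ra and Il6st. For Osm and Socs3 it was then 0.81, for Osmr and Stat3 0.71 and for Lif and Socs3 0.56. The coefficient of Il6ra and Lifr went from -0.52 to -0.74. Of the ligands and their own receptor chains, Lif and Lifr had r = -0.13, Osm and Osmr 0.15, and Il6 and Il6ra 0.31. With Il6st, the chain they share, Osm had r = 0.60, Il6 0.49, Lif 0.47 and Il11 0.35. Without the host-rich tumors these were 0.77, 0.52, 0.59 and 0.42. Il6 and Stat3 had r = 0.37, and Socs3 and Stat3 0.17. Model means of Il6st and Il6ra also rose with the macrophage score (r = 0.73 and 0.71), as did Osm (0.69). M6 was lowest for each of these genes and for that score (mean -1.06), and the coefficients were not computed without it. Il6ra had r = -0.75 with the basal epithelial score. All model means share the arrays and their common scale.

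Further genes of the pathway were read from lists. Of 9 other ligands and receptors measured, 6 were called by the F-test over the 12 models, beside 70.4% of all genes, with a median range of means of 1.00. Clcf1, a ligand of the ciliary neurotrophic factor receptor, ran from 7.38 in Met-1 to 9.38 in R3T (adjusted p = 8.63e-06 in limma), and Cntfr, that receptor, from 7.21 in MVT-1 to 9.19 in HRM-1 (0.00892). Ctf1, cardiotrophin-1, ran from 6.73 in MVT-1 to 7.73 in F311 (2.51e-06). Ebi3, a subunit of IL-27, ran from 7.07 in M6 to 8.81 in E0771 (2.6e-10), while its partner Il27 (adjusted p = 0.0176) and Il31ra (0.00554) were called with ranges of only 0.32 and 0.33. Ctf2, Il27ra and Il31 did not pass (0.502, 0.158 and 0.0804). The receptor chain that binds IL-11 was not analysed here.

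All 12 measured genes of JAK/STAT signaling and its inhibitors were called by the F-test over the 12 models, beside 70.4% of all genes, with a median range of 0.95. Jak2, 1 of the JAK kinases, had the smallest p of the list and ran from 8.87 in M6 to 11.33 in 4T1 (5.49-fold, adjusted p = 6.22e-13 in limma). Socs1 ran from 7.87 in M6 to 9.64 in TS/A-E1 (2.81e-10). Socs2 ran from 8.40 in E0771 to 10.62 in Met-1 (7.35e-09) and Cish from 6.69 in M6 to 8.35 in 6DT1 (1.77e-08). Of these 4 genes, M6 was lowest for 3.

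Of 21 genes known to respond to STAT3, 18 were called by the same F-test, beside 70.4% of all genes, with a median range of 1.25. The 4 with the smallest p, Pim3 and Myc (a survival kinase and a growth regulator), Bcl2l1 (an inhibitor of cell death) and Ccnd1 (a cell cycle regulator), did not share 1 order of models. Pim3 (8.81 to 9.87) and Myc (10.44 to 12.75) were lowest in Met-1 and highest in HRM-1, where Stat3 was called lower. Bcl2l1 ran from 8.70 in M6 to 9.90 in R3T, and Ccnd1 from 11.50 in 6DT1 to 12.75 in 4T1 (adjusted p = 8.57e-12, 1.2e-10, 8.73e-09 and 1.01e-07 for the 4 in that order). All 10 measured genes that induce Il6 or are induced with it were called, again beside 70.4% of all genes, with a median range of 2.44. Tnf ran from 6.77 in 6DT1 to 9.04 in E0771 (adjusted p = 7.62e-14) and Ccl2, a monocyte attractant, from 8.76 in M6 to 11.71 in E0771 (1.06e-08). Il1a, an alarm cytokine, and Csf3, the granulocyte growth factor, were highest in 4T1, as Il6 was, at 9.44 and 7.88 (adjusted p = 2.55e-12 and 2.38e-09). None of the other measured genes of this list was highest in 4T1. E0771, highest for Tnf and Ccl2, had an Il6 mean of 5.03 ± 0.30, below 4 other models.

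For each member with a range of at least 1, the genes with the most similar order of model means were sought among 6248 genes that also had a range of at least 1. Osm was most like Slc7a8 (r = 0.922 over 12 models), Itgam (0.896) and Fes (0.896). Itgam encodes the CD11b integrin chain of myeloid cells, and its model means ran from 8.40 in M6 to 10.85 in EMT-6, the lowest and highest models for Osm. Il11 was most like Saa3, an acute-phase protein (0.818), which ran from 7.11 in HRM-1 to 10.60 in EMT-6, followed by Slc9b2 (0.816) and Bdkrb1 (0.793). Il6 was most like Stc1 (0.828), Snora73b (0.823) and Trpm6 (0.817), and Lif was most like Gpr39 (0.897), Stard3nl (0.884) and Mtmr11 (0.870). Among the receptors, Il6ra was most like Camk2d (0.928), Pde1b (0.919) and Selenow (0.904), and Il6st was most like Dennd5a (0.912), Idh1 (0.899) and Tlr4 (0.891), the endotoxin receptor of macrophages. Lifr was most like Mtus1 (0.940), Tcaf2 (0.928) and Atp6v1b1 (0.923), and Osmr was most like Tmem79 (0.874), Cdcp1 (0.850) and Gpm6b (0.842). The highest of many coefficients over 12 points is large by selection, and these names describe likeness in this set of models.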

How the data were processed

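Tumor RNA had been amplified, labeled and hybridized to Affymetrix mouse gene arrays, 1 array per tumor. Per the authors' deposited table, values are processed log2 signals of 35556 transcript clusters. How they were summarized and normalized is not given in the sources used here. Array signal includes background and saturates, which compresses differences of dim and bright genes, and 48 arrays limit the precision.

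Clusters naming 1 gene (21789) were kept, and the brightest cluster stood for the 999 genes with several, which left 19938 genes. The values were used as deposited, without a filter. Models, strains and replicate numbers came from the labels, which call the replicates independent tumors and give no batch. Limma 3.58.1 (R 4.3.3) was fitted to all genes with 1 group per model, followed by F-tests and contrasts of each model with the mean of the other 11; strains were compared on model means. A call means a Benjamini-Hochberg adjusted p over all genes under 0.05. The fits were tested on simulated data. Scores, correlations and promoter matches used Python 3.11.15 with pandas 2.3.3, and figures matplotlib 3.10.9.

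The members, gene lists and tests were chosen with earlier results of these data known. Named beside the members are, from each list, the 4 genes with the smallest F-test p (for ligands and receptors all), and for each member with a range of at least 1 the 3 genes most like it, without predicted symbols. Alternatives were other normalizations, a fit without the dimmest 30% of clusters, averaging the clusters of each gene, other limma priors, a replicate block, the methods' one-way test and t-test, a random block, and leaving out each tumor or model. Leaving out the 9 host-rich tumors (adipocyte or B cell score above 2.5) was added after the data were seen. Replicate numbers did not pair the tumors: deviations of same-numbered tumors had a median r of 0.033 over 264 pairs, against 0.003 over 792 other pairs.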

Additional observations from a re-analysis of the deposited data

Results flagged for a closer look

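In 11 of 120 groups of 4 tumors (10 members in 12 models) the highest or lowest tumor stood apart from the other 3 by Dixon's criterion, which chance meets in about 5.0% of groups. The share over all genes was not computed, so the count is not read as a trait of the members. Among the ligands these were the Il6 signal of 5.51 in Met-1 replicate 3 (next tumor 4.73), the Il11 signals of 6.70 in HRM-1 replicate 3 (6.45) and 8.28 in M6 replicate 3 (6.57), and the Osm signals of 7.36 in 4T1 replicate 2 (6.57) and 6.90 in Met-1 replicate 2 (6.05). For the receptors, Il6st stood apart at 11.28 in E0771 replicate 1 (10.80) and 11.58 in R3T replicate 2 (11.16), and Lifr at 9.49 in R3T replicate 2 (8.26). Osmr was low at 10.78 in EMT-6 replicate 3 (10.91), 9.54 in MVT-1 replicate 3 (9.72) and 10.26 in Met-1 replicate 2 (10.59). Of these values, 6 belong to the host-rich tumors (E0771 replicate 1, R3T replicate 2, EMT-6 replicate 3 and Met-1 replicate 2), and the part of those cells was not tested.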

How the results depend on the processing

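None of the 27 called contrasts changed direction under any alternative run. Among contrasts that were not called, Lif in 6DT1 turned from -0.45 to 0.60 without the host-rich tumors. The counts of members called by the F-test over the 12 models (8 to 10 with 1 tumor left out), over the 5 FVB/N models (5 to 9) and between strains (0 in each fit) stayed within 1.5 times the main count. The count over the 5 Balb/c models ran from 3 (without F311 replicate 2) to 6 and was 4 or 5 in most fits with 1 tumor left out. That of single-model contrasts ran from 24 to 33. The methods' tests gave 9 contrasts after Benjamini-Hochberg adjustment in place of 27, and the fit without the host-rich tumors, chosen after seeing the data, gave 50; that fit leaves 2 tumors in F311 and 6DT1 and 3 in 4T1, Met-1, E0771, R3T and EMT-6. With the replicate number as a block the counts were 9, 6 and 7 for the F-tests and 25 for the contrasts, and the calls lost were Il11 in TS/A-E1 (adjusted p = 0.0537) and Lif in HRM-1 (0.05). The replicate block could not be fitted to the strain comparison, which uses model means. Il6 is not in the fit without the dimmest 30% of clusters, where Lifr passed (adjusted p = 0.0479). With 1 tumor left out, the members' F-tests over the 12 models and the 27 contrasts kept their side of the threshold 1712 times. They lost a call 54 times and gained one 10 times, each time the F-test of Lifr. Under the other alternatives these counts were 301, 28 and 2. The cause was not tested. A dim signal such as that of Il6 limits what these arrays can show.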
